A study of Homo sapiens with 8 samples.

Results

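The genes described here are the 3 that encode the chains of fibrinogen (FGA, FGB and FGG) and FGL1, which encodes fibrinogen-like protein 1. They are 4 of the 59641 genes in the deposited table and were found by gene symbol. They were selected on measured values of this same contrast, in which the FPKM of the chains was higher with hFGF19, so the values below that compare the groups are a description, and no test of that contrast is read for them. RNA was sequenced from HCT116, an established cell line from a human colorectal carcinoma, with 4 control samples labelled as untreated and 4 that received the hormone hFGF19 (human FGF19) for 72 hours at 100 ng/ml. The labels give no culture time for the controls. They also do not say whether replicates are separate cultures, so p-values cover only the spread among these samples, and that may be technical. FPKM is a gene's reads divided by the length of its model and by the reads of its library. The library totals implied by the FPKM values, worked out as described below, lay between 17121190 and 20752753 reads.

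Fibrinogen is a secreted plasma glycoprotein built from pairs of the Aα, Bβ and γ chains, the products of FGA, FGB and FGG, which are joined by disulfide bonds in the endoplasmic reticulum. Thrombin cuts short peptides from the Aα and Bβ chains, and the resulting fibrin monomers polymerise into the clot. Hepatocytes are the main source, and interleukin-6 raises transcription of the 3 genes during the acute-phase response. FGL1 shares the fibrinogen-type C-terminal domain but does not form clots. It is secreted mainly by hepatocytes and is a ligand of the T cell receptor LAG3.

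All 3 chain mRNAs were present in every library, in the same order. FGB (ENSG00000171564) had the highest level, with a mean of 16.8 FPKM over the 8 libraries, followed by FGG (ENSG00000171557) with 11.2 FPKM and FGA (ENSG00000171560) with 3.35 FPKM. FGL1 (ENSG00000104760) was far lower at 0.806 FPKM. By mean FPKM these genes ranked 6303, 7620, 10914 and 14822 among the 59641 genes. The order held within each of the 8 libraries. FGB exceeded FGG by 1.37 to 1.72 times, FGG exceeded FGA by 2.82 to 4.64 times, and FGA exceeded FGL1 by 3.48 to 4.91 times. FGL1 fell below the filter of a mean of 1 FPKM that was set for the fit across all genes, so 3 of the 4 genes were in that fit.

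The size of these steps depends on the length used to scale each gene. Within a gene, FPKM values moved in steps worth 1 read each, which gave both the reads and the length behind a value. The implied lengths were 1033 bases for FGB, 1200 for FGG, 2352 for FGA and 1134 for FGL1. The mean lengths of the transcripts annotated for these genes in GENCODE release 29 are 1033, 1200, 2352 and 1135 bases. Of 13932 genes compared, 99.8% had an implied length within 1 base of that mean. The mean covers short noncoding transcripts too. FGB has 7 annotated transcripts, of which 2 are protein-coding, and its longest protein-coding transcript has 1975 bases. For FGG the longest has 1760 bases and for FGA 3678. Per base of the longest protein-coding transcript, FGB exceeded FGG by 1.05 to 1.32 times in place of 1.37 to 1.72 times, and the order FGB, FGG, FGA, FGL1 still held in 8 of 8 libraries. Ratios of 1 gene between libraries do not depend on this length. Changes on log2(FPKM + 1), given below, do depend on it through the added 1.

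FGB was higher in each hFGF19 library than in any control. It was at 13.01, 14.8, 13.3 and 15.4 FPKM in controls 1 to 4 and at 21.8, 18.3, 18.04 and 19.8 FPKM in hFGF19 1 to 4. The means were 14.1 ± 1.152 and 19.5 ± 1.73 FPKM (SD, n = 4 each), a ratio of 1.38. The values rest on 239 to 467 reads per library. On log2(FPKM + 1), a scale on which changes of low genes come out too small, the difference was 0.43 ± 0.0796 (SE, limma), with a 95% confidence interval of 0.26 to 0.61. In bulk RNA a higher level in each cell and more expressing cells cannot be told apart.

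For FGG the groups did not overlap either, and the pair numbered 1 had the largest ratio. FGG was at 7.55, 9.15, 9.61 and 10.31 FPKM in controls 1 to 4 and at 15.9, 11.2, 13.15 and 12.9 FPKM in hFGF19 1 to 4. Control 1 was the lowest and hFGF19 1 the highest of all 8 libraries, though neither passed Dixon's 95% critical value within its group. The ratio within the pair numbered 1 was thus 2.10, against 1.23, 1.37 and 1.25 in pairs 2 to 4. Pairs in this text share a replicate number only, and the check given below did not single out these numbers. The means were 9.15 ± 1.17 and 13.3 ± 1.91 FPKM (SD, n = 4 each), a ratio of 1.45 and a log2 change of 0.49 ± 0.112 (SE, limma). Without control 1 or without hFGF19 1 the log2 change was 0.41.

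FGA had the smallest difference of the chains. It was at 2.68, 3.08, 3.15 and 2.83 FPKM in controls 1 to 4 and at 3.42, 3.92, 3.48 and 4.22 FPKM in hFGF19 1 to 4. The highest control and the lowest hFGF19 library were close, at 3.15 and 3.42 FPKM. The means were 2.93 ± 0.219 and 3.76 ± 0.379 FPKM (SD, n = 4 each), a ratio of 1.28. They rest on 518 reads over the controls and 656 over the hFGF19 libraries. The log2 change was 0.27 ± 0.094 (SE, limma), with a 95% confidence interval of 0.07 to 0.48.

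FGL1 showed no separation of the groups. It was at 0.545, 0.884, 0.871 and 0.7002 FPKM in controls 1 to 4 and at 0.892, 0.823, 0.742 and 0.993 FPKM in hFGF19 1 to 4. The hFGF19 library was higher in pairs 1 and 4 and lower in pairs 2 and 3. The reads summed to 64 in the controls (95% Poisson interval 49.3 to 81.7) and to 73 with hFGF19 (57.2 to 91.8). These intervals cover counting error only, and they overlap. In a fit with the filter lowered to 0.1 FPKM the log2 change was 0.09 ± 0.105 (SE, limma), and it was 0.04 without control 1.

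**Figure D1:**
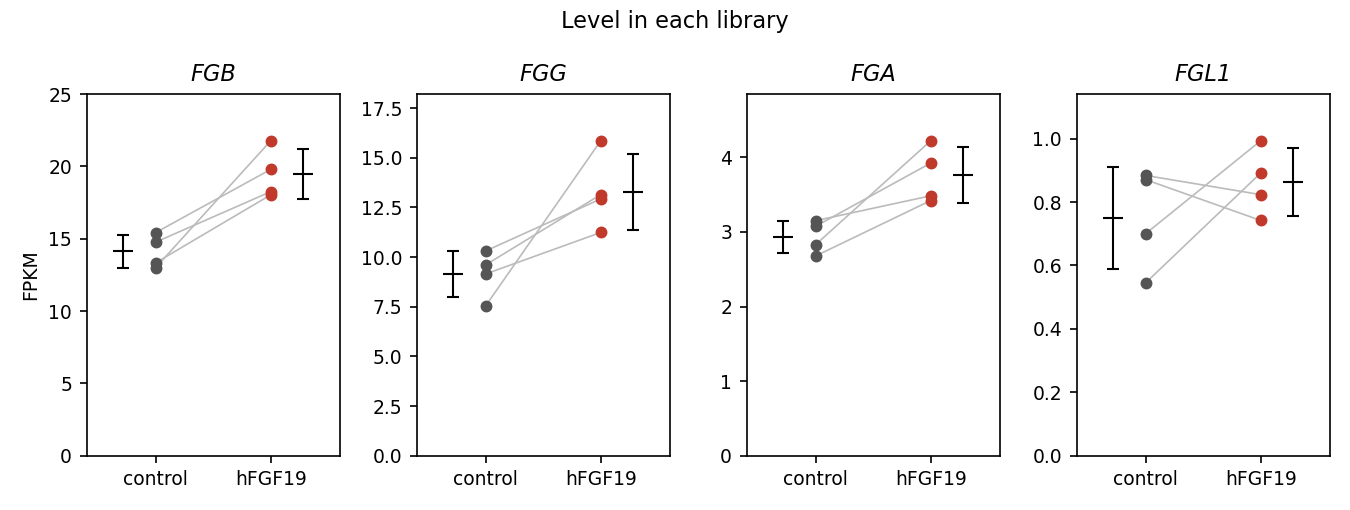
FPKM of FGB, FGG, FGA and FGL1 (y axes, each from 0) in the 4 control and 4 hFGF19 libraries (x axis). Each point is 1 library, and bars beside the points are the mean ± SD. Grey lines join libraries with the same replicate number, which the labels do not explain. The groups are apart for the 3 chains, with the steepest line for FGG in pair 1 (7.55 to 15.9 FPKM), and overlap for FGL1.

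In the fit across all 14100 genes tested, 0 of the 3 chains reached an adjusted p below 0.05 (limma, Benjamini-Hochberg), where 0.0993% of all genes were called higher and 0.00709% lower. All 3 had an unadjusted p below 0.05, as did 596 of all genes, and voom on the recovered reads called 0 of them. Groups that did not overlap, with hFGF19 higher, were seen for 3 of 3 chains and 1.48% of all genes. Nothing is read from these counts, since the same contrast chose the genes. The adjusted p was 0.139 for FGB, 0.393 for FGG and 0.9998 for FGA (limma). Leaving out any 1 library kept the log2 changes between 0.38 and 0.48 for FGB, 0.41 and 0.56 for FGG, and 0.23 and 0.31 for FGA, with 0 calls.

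**Figure D2:**
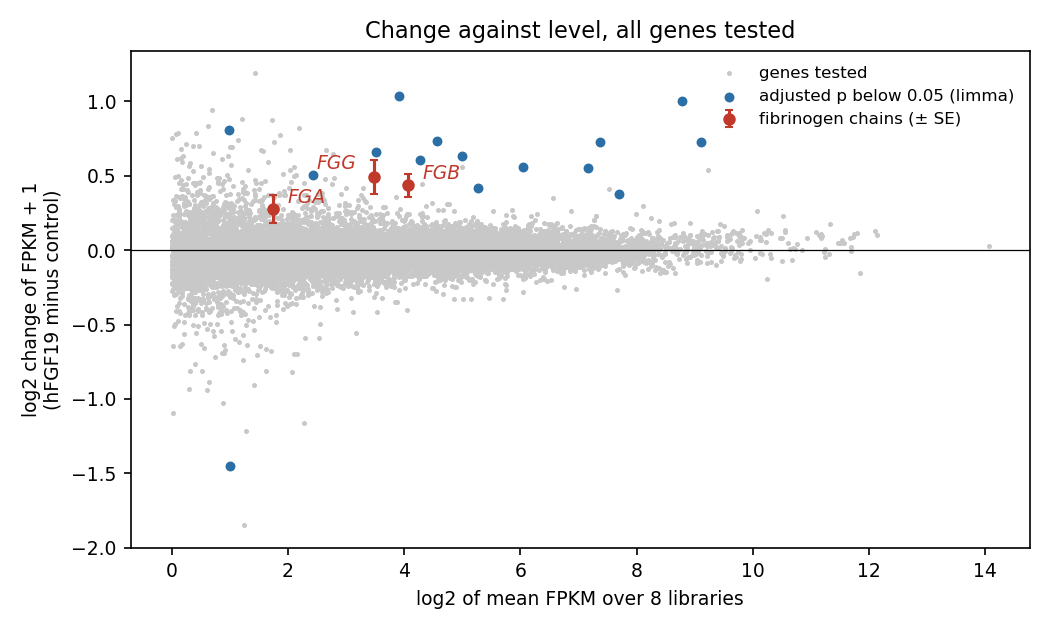
Log2 change of FPKM + 1, hFGF19 minus control (y axis), against the log2 of the mean FPKM (x axis) for the 14100 genes tested. Grey points are genes, blue points the 15 genes with an adjusted p below 0.05 (limma), and red points the chains with their SE. FGG (0.49) and FGB (0.43) lie above the bulk of genes of like level but below most called genes, and FGA (0.27) lies among low genes with a wide spread.

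The spread between libraries of a group was close to what read counts alone give for some genes and larger for others. The coefficient of variation of FGA was 7.46% in controls, where its reads alone would give 8.79%, and 10.1% with hFGF19 against 7.81%. That of FGL1 was 21.4% against 25.0% in controls and 12.3% against 23.4% with hFGF19. FGG varied more than its reads give, by 12.8% against 6.95% in controls and 14.4% against 5.78% with hFGF19. FGB was between, at 8.15% against 6.03% and 8.88% against 5.16%. These are values per group and were not tested for single libraries.

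The summed FPKM of the 3 chains was 26.2 ± 2.24 in controls and 36.5 ± 3.36 with hFGF19 (SD, n = 4 each). It ran from 23.2 to 28.6 in the controls and from 33.4 to 41.1 with hFGF19. The composition of that sum overlapped between the groups. FGB made up 54.0% ± 2.07 in controls and 53.3% ± 1.08 with hFGF19, FGG 34.8% ± 1.99 and 36.3% ± 2.37, and FGA 11.2% ± 0.927 and 10.4% ± 1.56 (SD, n = 4 each). FGA's share was lowest in hFGF19 1, at 8.33%, where FGG's was highest, at 38.6%. In the other 7 libraries FGA made up 9.91% to 12.07%.

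**Figure D3:**
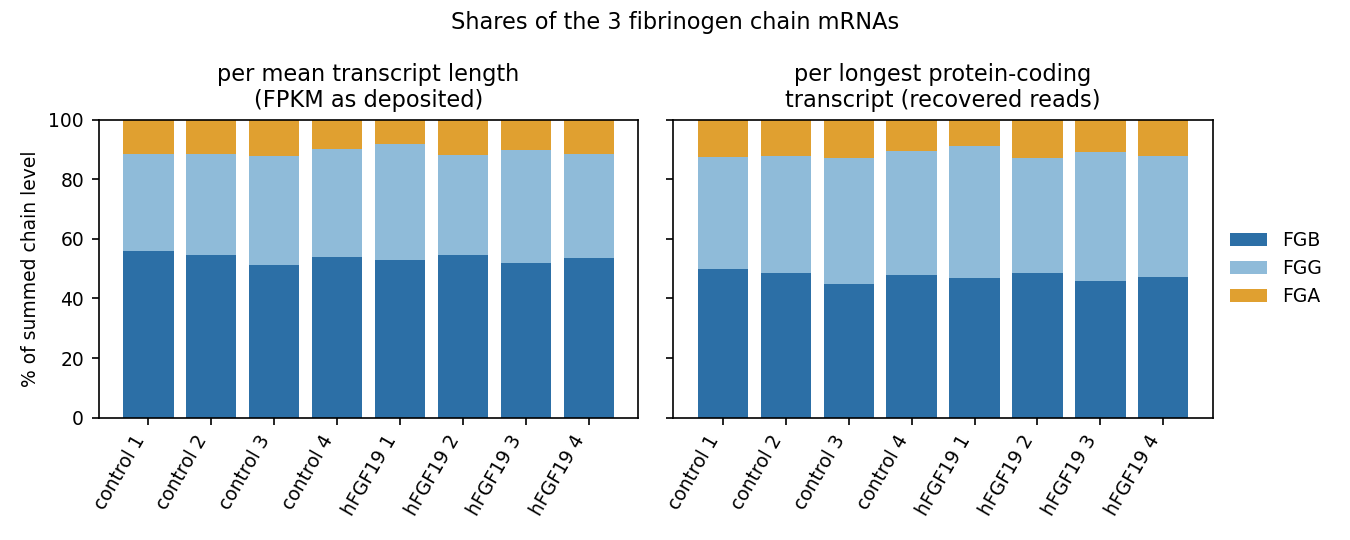
Share of FGB, FGG and FGA in their summed level (y axis, %) in each of the 8 libraries (x axis), per mean transcript length as deposited (left) and per longest protein-coding transcript (right). FGB is 51.1% to 56.0% of the sum on the left and 44.9% to 49.8% on the right, and the shares of the groups overlap on both.

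Among the chains the correlation between libraries was highest for FGB and FGG, and FGA had low values with both within the groups. Pearson's r over the 8 libraries, on log2(FPKM + 1), was 0.94 for FGB and FGG, 0.75 for FGA and FGB, and 0.67 for FGA and FGG. These values include the difference between the groups. After the group means were subtracted, r was 0.78 for FGB and FGG, -0.08 for FGA and FGB, and -0.16 for FGA and FGG. FGL1 had r = 0.75 with FGA and 0.42 and 0.44 with FGB and FGG on that scale. For both FGB and FGG, control 1 was the lowest and hFGF19 1 the highest library (13.01 and 21.8 FPKM, and 7.55 and 15.9 FPKM). How far their r rests on those libraries was not tested. The spread of FGA was near what its reads alone give (7.46% against 8.79% in controls, 10.1% against 7.81% with hFGF19). A low r for FGA therefore says little. The spread of FGL1 was below what its reads alone give in both groups, as given above. The r of 0.75 between FGL1 and FGA therefore also says little. These are descriptions over 8 libraries, in which genes share depth and library preparation.

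The 3 chain genes lie beside each other on chromosome 4 within 50.0 kb, with no other gene between them in GENCODE release 29 (GRCh38). FGB is on the plus strand, and FGA and FGG are on the minus strand. The FPKM table gives no positions, and the submitters' processing notes name the build hg19, so positions here are those of the reference and not of the authors' alignment. The promoter sequences are shown because the 3 chain genes share a cluster. They are the 250 bases before the annotated start (RefSeq, GRCh38.p14), 5′ to 3′ on the strand of the gene, which 3 of the 4 genes matched by symbol. FGB has 2 annotated starts, and the upstream one is used. Capitals mark letter matches to the motifs named below.
FGB, chr4:154562730-154562979, plus strand: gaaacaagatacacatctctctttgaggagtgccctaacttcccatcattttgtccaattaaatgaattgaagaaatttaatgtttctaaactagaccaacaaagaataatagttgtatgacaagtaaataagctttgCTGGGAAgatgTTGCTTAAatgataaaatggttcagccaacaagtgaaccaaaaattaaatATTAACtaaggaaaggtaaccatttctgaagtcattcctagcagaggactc
FGA, chr4:154590743-154590992, minus strand: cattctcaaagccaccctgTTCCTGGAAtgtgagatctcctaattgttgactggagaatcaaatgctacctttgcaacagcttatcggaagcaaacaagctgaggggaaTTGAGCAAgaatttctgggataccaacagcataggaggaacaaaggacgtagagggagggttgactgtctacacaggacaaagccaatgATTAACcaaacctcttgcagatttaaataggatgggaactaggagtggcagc
FGG, chr4:154612657-154612906, minus strand: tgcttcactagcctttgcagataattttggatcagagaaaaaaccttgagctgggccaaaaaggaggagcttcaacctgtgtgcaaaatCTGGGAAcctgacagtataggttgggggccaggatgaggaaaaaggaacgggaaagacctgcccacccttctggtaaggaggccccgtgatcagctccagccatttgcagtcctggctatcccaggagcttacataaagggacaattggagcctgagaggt

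The 300-base windows around these starts, which add the 50 bases after the start, were searched on both strands for 6 motifs. These were GTTAAT (an arm of the palindrome bound by the hepatic factor HNF1), CTGGGAA and CTGGAAA (forms of the interleukin-6 response element), TTGCNNAA (C/EBP), TTCNNNGAA (STAT) and the NF-kB consensus. Positions give the first base of a match as printed, with -1 for the last base before the start. CTGGGAA was found in FGB at -112 and in FGG at -161, on the strand of the gene. It occurs in 10.8% of all 35116 windows in the table. GTTAAT was found on the opposite strand, printed as ATTAAC, in FGB at -51 and in FGA at -52, against 6.88% of all windows. TTGCNNAA was found in FGB at -101 on the strand of the gene and in FGA at -141 on the opposite strand (10.5% of all windows). Counted from the downstream start of FGB, CTGGGAA lies at -143, TTGCNNAA at -132 and GTTAAT at -82. The near-equal positions of GTTAAT in FGB and FGA thus depend on the start used. TTCNNNGAA was found in FGA alone, at -231 (7.66% of all windows). CTGGAAA (7.44%) and the NF-kB consensus (11.3%) had no match in these windows, and no matches overlapped. A match in letters is not evidence of binding, and no match says only that these letters are not in the window.

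The nearest coding genes on either side of the cluster had values that overlapped between the groups. PLRG1, which encodes a splicing factor and is the coding gene next to FGB, averaged 42.8 ± 1.71 FPKM in controls and 40.9 ± 1.37 in hFGF19 libraries (SD, n = 4 each), with groups that overlapped (adjusted p = 0.9998, limma). LRAT, which encodes the enzyme that makes retinyl esters and is next to FGG, was at 0.309 ± 0.141 and 0.396 ± 0.112 FPKM on 48 and 61 reads, with overlapping groups. Neither gene is in the lists described next.

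Genes of 8 related roles were taken from lists, which were chosen with earlier results of these data known. The list nearest in kind to the chains, other acute-phase and plasma protein genes, had 11 of 23 members above the filter. Of these, 2 rose (LCN2 and SAA1), 0 fell and 9 did not pass (limma), where 0.0993% of all genes were called higher and 0.00709% lower. The median log2 change of the list was 0.17, against -0.0132 over all genes tested. LCN2, which binds bacterial iron carriers, was between 112.5 and 137 FPKM in the controls and between 197 and 222 with hFGF19, with a log2 change of 0.72 ± 0.0699 (adjusted p = 0.00226, limma). SAA1, an acute-phase apolipoprotein with near-identical paralogs that may share its reads, was between 0.907 and 1.40 FPKM in controls and between 2.51 and 3.11 with hFGF19, with a log2 change of 0.81 ± 0.121 (adjusted p = 0.0430, limma). SAA1 passed in 0 of 16 alternatives, with an adjusted p of 0.0557 with the replicate number as a block, 0.143 by voom and 0.0609 to 0.222 when any 1 library was left out, on 53 and 126 reads. LCN2 passed in 16 of 16. The complement component C3, at 487 ± 47.6 and 708 ± 81.2 FPKM (SD, n = 4 each), had an adjusted p of 0.106, and 0.0031 with the block (limma), where 0.128% of all genes were called higher. Without hFGF19 3 it was 0.0424, and C3 passed in 2 of 16 alternatives.

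CRP, a pentraxin that hepatocytes release in the acute phase, had a higher level than FGB in this table, at 24.2 ± 1.94 FPKM in controls and 30.4 ± 4.03 with hFGF19 (SD, n = 4 each). Its groups overlapped, and its log2 change of 0.31 ± 0.0943 did not pass (adjusted p = 0.839, limma). The protease inhibitor SERPINA1 was at 24.6 ± 1.94 and 26.5 ± 2.08 FPKM and fibronectin, FN1, at 13.3 ± 2.06 and 15.3 ± 2.63 (SD, n = 4 each), both with groups that overlapped. Other members that the liver secretes, named after their values were seen, ranged widely. CP, which encodes ceruloplasmin, had a mean of 9.14 FPKM over the 8 libraries, and HPX, C4A, HP and CFB had means of 1.89, 1.43, 1.125 and 1.12 FPKM. ORM1, ORM2, SERPINA3 and HAMP each had a mean under 0.1 FPKM.

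Among 14 genes of interleukin-6 and STAT3 signalling above the filter, 1 of 14 rose, 0 fell and 13 did not pass. Of all genes tested, 0.0993% were called higher and 0.00709% lower (limma). The gene that rose was IL6 itself, which averaged 17.6 ± 1.44 FPKM in controls and 29.8 ± 0.295 in hFGF19 libraries (SD, n = 4 each), a log2 change of 0.73 ± 0.0652 (adjusted p = 0.00199, limma). It passed in 16 of 16 alternatives. The median of the list was 0.01. Its shared receptor subunit IL6ST was at 759 ± 123 and 796 ± 107 FPKM and the kinase JAK1 at 263 ± 10.7 and 271 ± 8.04 (SD, n = 4 each). The related cytokine IL11 was at 105 ± 3.49 and 115 ± 6.19 FPKM and the receptor gene OSMR at 210.3 ± 7.62 and 227 ± 6.68, with overlapping groups for all 4 genes. STAT3, a transcription factor of interleukin-6 signalling, and its feedback inhibitor SOCS3 are named outside the naming rule. Only their mRNA was measured. The control and hFGF19 means were 86.3 and 85.3 FPKM for STAT3 and 48.5 and 46.7 FPKM for SOCS3, with overlapping groups.

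In the other 6 lists 0 of 51 genes tested were called by limma, by limma with the block or by voom. Of all genes tested, limma called 0.0993% higher and 0.00709% lower. With so few calls anywhere, 0 calls in these lists say nothing about their roles. Of the 51, 1 had an unadjusted p below 0.05, against 596 of all 14100 genes tested (limma). That gene was CEBPA, a hepatic transcription factor named after its values were seen, at 7.25 ± 0.409 FPKM in controls and 6.21 ± 0.447 with hFGF19 (SD, n = 4 each, adjusted p = 0.9998, limma). The groups of CEBPA did not overlap, its lowest control being 6.68 FPKM and its highest hFGF19 library 6.49 FPKM. Groups without overlap were seen for 2 of the 51, CEBPA (lower) and S100A10 (higher, described below). Among all 14100 genes, 208 were higher and 232 lower without overlap. The 11 hepatic transcription factors tested had a median log2 change of -0.05. Of these, 2 of 11 had a higher mean with hFGF19, against 6158 of all 14100 genes. CEBPB, which mediates interleukin-6 responses, was at 187.5 and 179.8 FPKM in controls and hFGF19 libraries. The bile acid receptor gene NR1H4 was at 39.1 and 40.5 FPKM and NR5A2 at 45.3 and 42.4 FPKM.

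Genes for assembly and export from the endoplasmic reticulum, for clotting and for fibrinolysis gave 0 called genes, where 0.0993% of all genes were called higher and 0.00709% lower (limma). The chaperones CANX, at 2417 and 2388 FPKM, CALR, at 419 and 411, and HSP90B1, at 832 and 800.5, and the disulfide isomerase P4HB, at 844 and 902, had overlapping groups, and the median log2 change of the 14 genes was -0.02. Of the 19 clotting and cross-linking genes 7 were above the filter, with a median of 0.02. Tissue factor, F3, was at 304 ± 23.7 and 288.5 ± 31.8 FPKM, its inhibitor TFPI at 54.8 ± 3.27 and 58.2 ± 3.06, and the transglutaminase TGM2 at 6.96 ± 0.994 and 8.24 ± 1.07 (SD, n = 4 each). F12, the contact factor, was at 8.95 and 8.53 FPKM. Prothrombin mRNA, F2, had 6 reads in all 4 controls and 9 with hFGF19. Of the 7 fibrinolysis genes tested, with a median of 0.08, the protease inhibitor SERPINE2 was at 52.6 ± 1.66 and 57.7 ± 4.61 FPKM and ANXA2 at 1128 ± 42.3 and 1114 ± 32.9 (SD, n = 4 each). S100A10, the partner of ANXA2, was at 209.6 ± 4.89 and 221.5 ± 3.95 FPKM without overlap (adjusted p = 0.9998, limma). F2 and S100A10 are named after their values were seen.

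Receptors for fibrinogen and FGL1, and relatives with a fibrinogen-type domain, gave no called change, where 0.0993% of all genes were called higher and 0.00709% lower (limma). Of 12 receptor genes 9 were tested, with a median of 0.08. The integrin gene ITGB1 was at 1671 and 1595 FPKM, ITGAV at 190.1 and 203, ITGA5 at 54.9 and 58.5, and TLR4 at 25.0 and 26.5 FPKM, with overlapping groups. LAG3, the receptor of FGL1, had 16 reads in the controls and 6 with hFGF19, with overlapping groups. Of 18 relatives 3 were tested, the tenascins TNC, at 35.5 and 38.1 FPKM, and TNXB, at 11.1 and 11.2, and FIBCD1, at 17.8 and 16.9. FGL2, which encodes fibrinogen-like protein 2, had 15 and 22 reads. LAG3 and FGL2 are named after their values were seen.

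**Figure D4:**
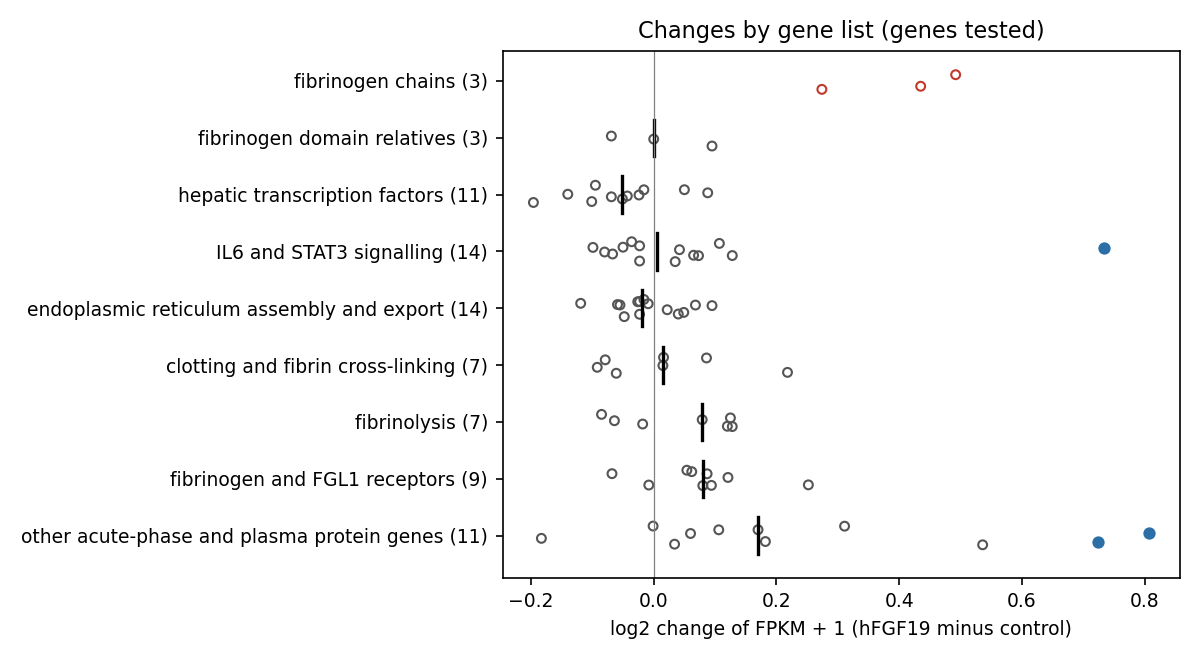
Log2 change of FPKM + 1, hFGF19 minus control (x axis), for the chains (red) and each list (grey circles), with the number of genes tested in brackets. Filled blue points have an adjusted p below 0.05 (limma), and bars are medians of the lists. The chains lie between 0.27 and 0.49, and the called genes are IL6 (0.73), LCN2 (0.72) and SAA1 (0.81).

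Summed levels of marker genes of 4 cell types overlapped between the groups. Of 15 hepatocyte markers, 3 had a mean of at least 1 FPKM, 7 were under 0.1, and APOA2, APOC3 and F9 were at 0 in all 8 libraries. Their summed level ran from 8.10 to 11.4 FPKM in controls and from 8.91 to 11.2 with hFGF19. ALB, the most abundant of them, was at 3.74 ± 0.593 and 4.21 ± 0.382 FPKM (SD, n = 4 each). These means were below those of FGB and FGG and above those of FGA (2.93 and 3.76 FPKM). Of 8 megakaryocyte and platelet markers 0 reached 1 FPKM, GP9 was at 0, and the sum ran from 1.39 to 1.99 FPKM in controls and from 1.13 to 2.18 with hFGF19. The labels' RNA protocol mentions adipose material, against the named line. Of 6 adipocyte markers 0 reached 1 FPKM and FABP4 was at 0, with a sum between 0.405 and 0.607 FPKM in controls and between 0.443 and 0.867 with hFGF19. Of 10 intestinal epithelial markers 3 did, namely KRT8, KRT18 and EPCAM, and the sum ran from 1995 to 2167 FPKM in controls and from 1957 to 2089 with hFGF19. Most of that sum came from KRT8 and KRT18, with means of 1451 and 586 FPKM. KRT8 alone ran from 1450 to 1504 FPKM in controls and from 1401 to 1432 with hFGF19, without overlap (adjusted p = 0.9998, limma). CDX1 was at 0, and CDX2, KRT20 and LGR5 were under 0.1 FPKM. VIL1, LGALS4 and CDH17 had means of 0.141, 0.251 and 0.436 FPKM. The sum therefore says little about markers of this list other than KRT8 and KRT18.

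The genes whose pattern over the 8 libraries was most like the mean of the standardised chain values were LURAP1L, SLC43A3, MRPS24, CXCL5 and USB1, with Pearson's r of 0.96, 0.96, 0.96, 0.95 and 0.95. These values include the difference between the groups, and CXCL5 was itself called (116 ± 6.34 and 170.1 ± 6.73 FPKM, SD, n = 4 each, adjusted p = 0.00230, limma). With group means subtracted, the nearest were AC027796.4, MTFR1L, YBX1P10, FADS2 and GABRA3, with r between 0.95 and 0.97. Ranks in place of values kept 0 of the first 5 genes and 1 of the second 5. The nearest genes thus changed with the measure of likeness.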

How the data were processed

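Poly(A) RNA of 8 HCT116 samples was sequenced, per the labels' protocols. The authors deposited 1 FPKM value per gene and sample. The submitters' processing notes list HISAT2 2.0, StringTie 1.3.0 and hg19 but do not say what each was used for. Counting step, strand setting and annotation: not given in the sources used here. Groups and replicate numbers come from sample titles. The members and lists were chosen with earlier results of these data known.

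Whole reads were worked out from the steps of the FPKM values: 99.996% of values above 0 were whole within 0.02 reads, and recovered reads were 99.97% of each total. A fit with limma 3.58.1 (R 4.3.3), with a variance trend, compared hFGF19 with control on log2(FPKM + 1) over the 14100 genes whose mean reached 1 FPKM. The test was two-sided, and Benjamini-Hochberg adjusted p below 0.05 was called. The fit was tested on simulated data. The planned count models were not run, since the deposited unit is FPKM, and voom on recovered reads and the shares per other transcript lengths were added after seeing the data. Other alternatives were the pseudocount, filter, scaling, block and leaving out each library. Deviations from the group means correlated across genes with r of 0.107 to 0.302 in the 4 same-numbered pairs, all above the limit of 0.1 used for pairing. Differently numbered pairs ran from -0.448 to 0.436, and some exceeded every same-numbered pair, so the check does not single out the numbers. The labels do not say what a number stands for. Libraries of a group differed beyond counting noise (chi-square per degree of freedom of 3.51 to 27.7). Named genes are the 4 members, the called genes and up to 4 others of highest mean FPKM in each list, and the 5 nearest in each likeness ranking; a few others are marked as named outside this rule. Some list genes are not reported here.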

Additional observations from a re-analysis of the deposited data

How the results depend on the processing

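The log2 changes of FGA, FGB and FGG were above 0 in all 16 alternatives run for each, and that of FGL1 in all 15, with 0 calls. The genes were selected on this contrast and the alternatives reuse the same libraries, so the constant sign is no added support. Adjusted p ranged from 0.0994 to 0.563 for FGB, from 0.245 to 0.999 for FGG, from 0.648 to 0.9999 for FGA and from 0.933 to 1.0 for FGL1 (limma or voom). Under the replicate block 21 genes were called in place of 15, and the adjusted p of FGB was 0.104. In the 8 lists 3 genes were called with and without the block, which lost SAA1 and gained C3. Of the list genes, IL6 and LCN2 were called in 16 of 16 alternatives, C3 in 2 and SAA1 in 0. Leaving out 1 library gave between 7 and 13 called genes (7 without control 1, hFGF19 2 or hFGF19 4, 8 without control 3 and 9 without hFGF19 1), and fewer samples are tested there. No filter on low values gave 10 genes. The chains' shares depended on the length used. As the mean of 8 libraries, FGA made up 20.6% of chain reads and 16.6% per base of exon union, FGB 44.9% of reads and 47.4% per base of the longest protein-coding transcript, and FGG 40.9% per base of that transcript and 30.6% per base of exon union. Ranks in the likeness measure kept 0 and 1 of 5 genes. The planned edgeR and DESeq2 fits were not run. FGL1 rests on 11 to 21 reads per library, and the change that this depth could show was not tested.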
